A study of Mus musculus with 12 samples.

Results

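The 6 mouse genes that encode the peroxisome proliferator-activated receptors (Ppara, Ppard and Pparg) and their partners, the retinoid X receptors (Rxra, Rxrb and Rxrg), were followed in fetal liver that did or did not carry an intact Ppara gene. They were taken by name and make up 6 of the 19938 genes measured. Each had 1 probeset on the array, and all 6 were kept, since no filter on dim signal was used. Whole livers came from fetuses on embryonic day E19.5, taken by cesarean section where both parents were heterozygous, with 1 array per liver and 6 livers per genotype. The PPARa -/- fetuses (Ppara-/- below) were null for Ppara in every cell of the body, and the PPARa +/+ fetuses (Ppara+/+ below) of the same kind of mating were the controls. The labels give the strain as SV129, whereas the methods name a C57BL/6 background, and no drug or diet treatment separated the groups. The methods drew each genotype from fewer litters than livers, so some livers shared a litter and the p-values do not allow for this.

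PPARs and RXRs are nuclear receptors, proteins that bind DNA and switch genes on or off when a small lipid ligand enters their pocket. A PPAR acts as a pair with an RXR on a repeat of the motif AGGTCA, so that the RXR is shared with many other receptors. PPARα is the main form in hepatocytes, where fatty acids activate it and its targets burn fat and make ketone bodies, PPARδ (Ppard) is found in most tissues, and PPARγ (Pparg) is best known as the master regulator of fat cells.

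The windows before the start sites of the 2 genes that differed between the genotypes are shown first, since transcription of each gene starts right after them. RefSeq sequence of the build GRCm38.p6 was used, with 250 bases before each start, read 5′ to 3′ on the plus strand, and capitals mark the motif AGGTCA. Ppara has 1 window, chr15:85735526-85735775, and Pparg has 3, chr6:115360894-115361143, chr6:115362099-115362348 and chr6:115421816-115422065.

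Ppara: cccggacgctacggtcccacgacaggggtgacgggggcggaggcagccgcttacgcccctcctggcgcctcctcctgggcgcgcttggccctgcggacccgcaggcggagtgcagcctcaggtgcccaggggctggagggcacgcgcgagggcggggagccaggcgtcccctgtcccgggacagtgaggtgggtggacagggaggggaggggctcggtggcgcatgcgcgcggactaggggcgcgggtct

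Pparg, window 1: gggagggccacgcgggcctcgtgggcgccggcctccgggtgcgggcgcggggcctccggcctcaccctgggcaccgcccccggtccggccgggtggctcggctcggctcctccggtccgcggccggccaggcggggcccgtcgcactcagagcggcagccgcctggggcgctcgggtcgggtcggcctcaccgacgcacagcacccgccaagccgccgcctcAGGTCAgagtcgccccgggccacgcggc

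Pparg, window 2: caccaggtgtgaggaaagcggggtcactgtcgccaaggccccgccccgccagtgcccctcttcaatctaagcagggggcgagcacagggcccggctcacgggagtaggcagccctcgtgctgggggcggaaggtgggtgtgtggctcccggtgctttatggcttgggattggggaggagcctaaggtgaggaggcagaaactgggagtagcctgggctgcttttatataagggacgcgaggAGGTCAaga

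Pparg, window 3: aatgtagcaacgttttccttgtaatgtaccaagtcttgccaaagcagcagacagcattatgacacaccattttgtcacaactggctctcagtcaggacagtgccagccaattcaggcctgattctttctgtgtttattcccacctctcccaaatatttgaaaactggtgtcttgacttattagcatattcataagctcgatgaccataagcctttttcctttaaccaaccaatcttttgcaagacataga

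The motif AGGTCA stood once on the plus strand in each of Pparg windows 1 and 2 and, in either direction, nowhere in the Ppara window. The window of Ppara was 76.4% G and C, and those of Pparg were 82.4%, 63.6% and 40.8%, against a median of 52.4% over all windows. Of the 11 windows of the 6 genes, 4 held AGGTCA on either strand, and 0 held AGGTCANAGGTCA, the PPAR and RXR repeat with 1 base between its copies (DR1), which contains AGGTCA. Over all 32851 windows of this length 14.0% held AGGTCA and 0.0335% held the repeat. A match in these letters is not a binding site, and no match says only that the letters are not in the window. The Pparg probeset gives 1 value for the gene, so its starts cannot be told apart here.

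Values are log2 signals made by the authors with RMA, and differences are Ppara-/- minus Ppara+/+ on that scale, where 1 is a doubling. Across all 19938 genes, 1443 passed an adjusted p of 0.05 with limma in either direction (7.24%), 761 lower (3.82%) and 682 higher (3.42%) in Ppara-/- livers. The groups did not overlap for 3.59% of the genes. Single livers and an order by animal number touch the results below. Ppara-/- mouse 1 had the highest mean of the hepatocyte markers of its genotype (12.45, range 12.15 to 12.45) and Ppara+/+ mouse 6 the lowest of its own (12.25, range 12.25 to 12.54). Over both genotypes this mean split by animal number. Ppara-/- mouse 1 and Ppara+/+ mice 1 to 4, whose animal numbers are lower than all others, were at 12.44 to 12.54. The other livers were at 12.15 to 12.35. This mean of 8 markers followed 1 of them, Tat, a tyrosine-degrading enzyme (r = 0.97 over the 12 livers, a description), which was at 11.72 in Ppara-/- mouse 1 and 10.34 in Ppara+/+ mouse 6. The mean of the other 7 did not set Ppara-/- mouse 1 or Ppara+/+ mouse 6 apart, at 12.54 to 12.63 in Ppara-/- and 12.49 to 12.58 in Ppara+/+ livers. Skeletal muscle markers summed to 1430 in Ppara+/+ mouse 3 on the linear scale and to 556 to 725 in the other 11 livers. By Xist and Y-linked genes, 5 of 6 Ppara-/- and 3 of 6 Ppara+/+ fetuses were female. Albumin, which defines hepatocytes, was at 13.56 in Ppara-/- and 13.55 in Ppara+/+ livers on the log2 scale. Both lie near the highest signal on these arrays (13.91), and whether a difference could show there was not tested. In whole livers, fewer cells of a type and less RNA per cell cannot be told apart.

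Ppara, the targeted gene, was lower in every Ppara-/- liver. In Ppara-/- mice 1 to 6 its log2 signal was 9.84, 9.83, 9.86, 9.94, 9.86 and 9.66, and in Ppara+/+ mice 1 to 6 it was 10.89, 10.92, 10.95, 10.84, 10.73 and 10.71. The highest Ppara-/- liver lay well under the lowest Ppara+/+ liver, so the groups did not overlap. The mean fell from 10.84 ± 0.10 to 9.83 ± 0.09 (SD, n = 6 each), a log2 difference of -1.01 (SE 0.06, 95% interval -1.13 to -0.89, adjusted p = 3.6e-08 with limma). The signal in Ppara-/- livers was 49.7% of that in Ppara+/+ livers (45.7 to 54.0%), and was not at the floor of the array. The sources used here do not give where the probes lie relative to the disrupted part of the gene, and the remaining signal does not say how much of an intact or altered transcript was left. The call held in all 26 other limma settings run on 10 to 12 livers (adjusted p 6.3e-10 to 4.8e-06). The 20 measured genes next to Ppara in the chromosome's gene order, 10 on each side, gave 0 calls with limma, with log2 differences from -0.09 to 0.18 and a median of 0.01. Since 7.24% of all genes were called, 0 of 20 is near that share and does not set the locus apart. The adjoining Wnt7b, a secreted Wnt ligand, differed by -0.01 (adjusted p = 0.96) and Cdpf1 by 0.09 (adjusted p = 0.43).

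**Figure D1:**
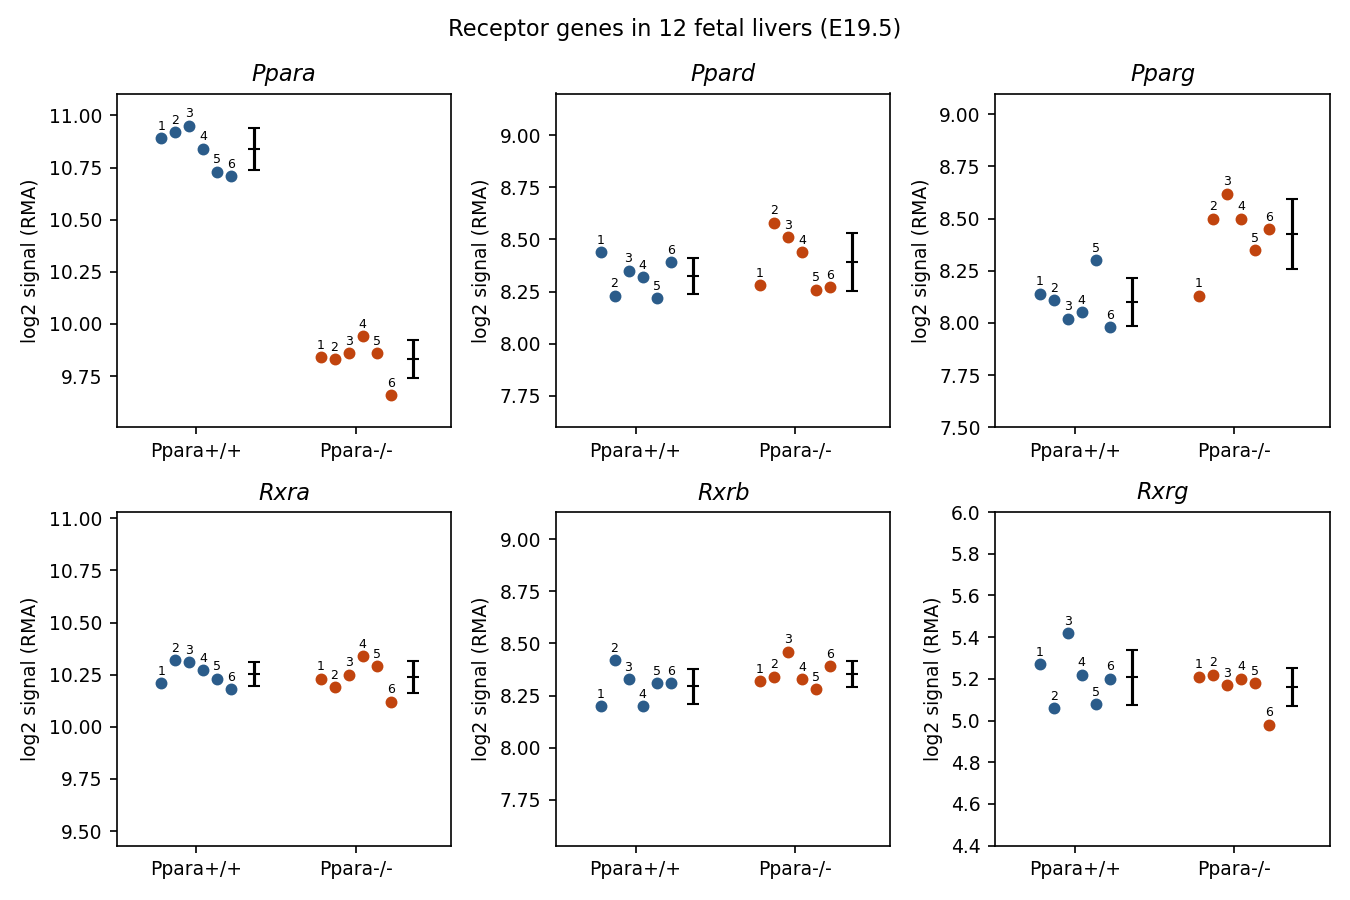
Log2 RMA signal of each receptor gene by genotype, with 1 numbered point per liver (mouse 1 to 6) and the mean ± SD in black at the right of each group. All panels span the same log2 range. Ppara is lower in all 6 Ppara-/- livers, Pparg is higher in 5 of 6, and the groups overlap for the other four.

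Pparg was the only other of the 6 genes to pass the test, in the opposite direction. That made 2 of 6 genes called, 1 of them the targeted gene, against 7.24% of all genes. The log2 signal of Pparg was 8.13, 8.50, 8.62, 8.50, 8.35 and 8.45 in Ppara-/- mice 1 to 6, and 8.14, 8.11, 8.02, 8.05, 8.30 and 7.98 in Ppara+/+ mice 1 to 6. Ppara-/- mice 2 to 6 were above every Ppara+/+ liver, whereas Ppara-/- mouse 1 lay inside the Ppara+/+ range and Ppara+/+ mouse 5 was the highest of its group. The mean rose from 8.10 ± 0.12 to 8.43 ± 0.17 (SD, n = 6 each), a log2 difference of 0.33 (SE 0.08, 95% interval 0.16 to 0.49, a 1.25-fold rise, adjusted p = 0.021 with limma). Its call was less firm than that of Ppara, held in 20 of the 26 settings. It was lost without Ppara-/- mouse 2 (0.31, adjusted p = 0.055) and without Ppara-/- mouse 4 (0.31, adjusted p = 0.053), with sex as a covariate (0.32, adjusted p = 0.055), and with a block for low against high animal numbers (6 livers each) (0.29, adjusted p = 0.055). With the hepatocyte marker mean as a covariate, which mostly follows Tat, it was 0.27 (adjusted p = 0.28). With the mean of the other 7 markers, a covariate added after seeing the data, it was 0.19 (adjusted p = 0.36). That mean was 12.54 to 12.63 in Ppara-/- livers and, apart from mouse 1 (12.58), 12.49 to 12.54 in Ppara+/+ livers. Both covariates thus overlap in part with genotype, and the hepatocyte marker mean with Tat also splits by animal number, as given above. Calls lost with either covariate, here and below, cannot be set apart from these overlaps. Of the 7 markers, Alb, Ttr, Apoa1, Apob and Cps1 differed between genotypes by at most 0.01 and the keratin gene Krt8 by 0.27 (adjusted p = 0.055). Without Ppara-/- mouse 1 the difference of Pparg was 0.39 (adjusted p = 0.0014). Within the 6 lowest animal numbers alone the log2 difference was 0.23 (adjusted p = 0.45) and within the 6 highest 0.34 (adjusted p = 0.24). These splits are uneven. The lowest numbers are Ppara-/- mice 1 and 2 and Ppara+/+ mice 1 to 4, and the highest Ppara-/- mice 3 to 6 and Ppara+/+ mice 5 and 6. Animal number and genotype thus overlap, in these splits and in the block. Both place Ppara-/- mouse 2 among the low numbers. Its hepatocyte marker mean (12.21) and Tat (9.76) lay with the livers of higher numbers. These splits and the block thus do not follow the split of the hepatocyte marker mean given above. A block cut at that point was not run. The adjusted p of the exact Mann-Whitney test was 0.10.

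**Figure D2:**
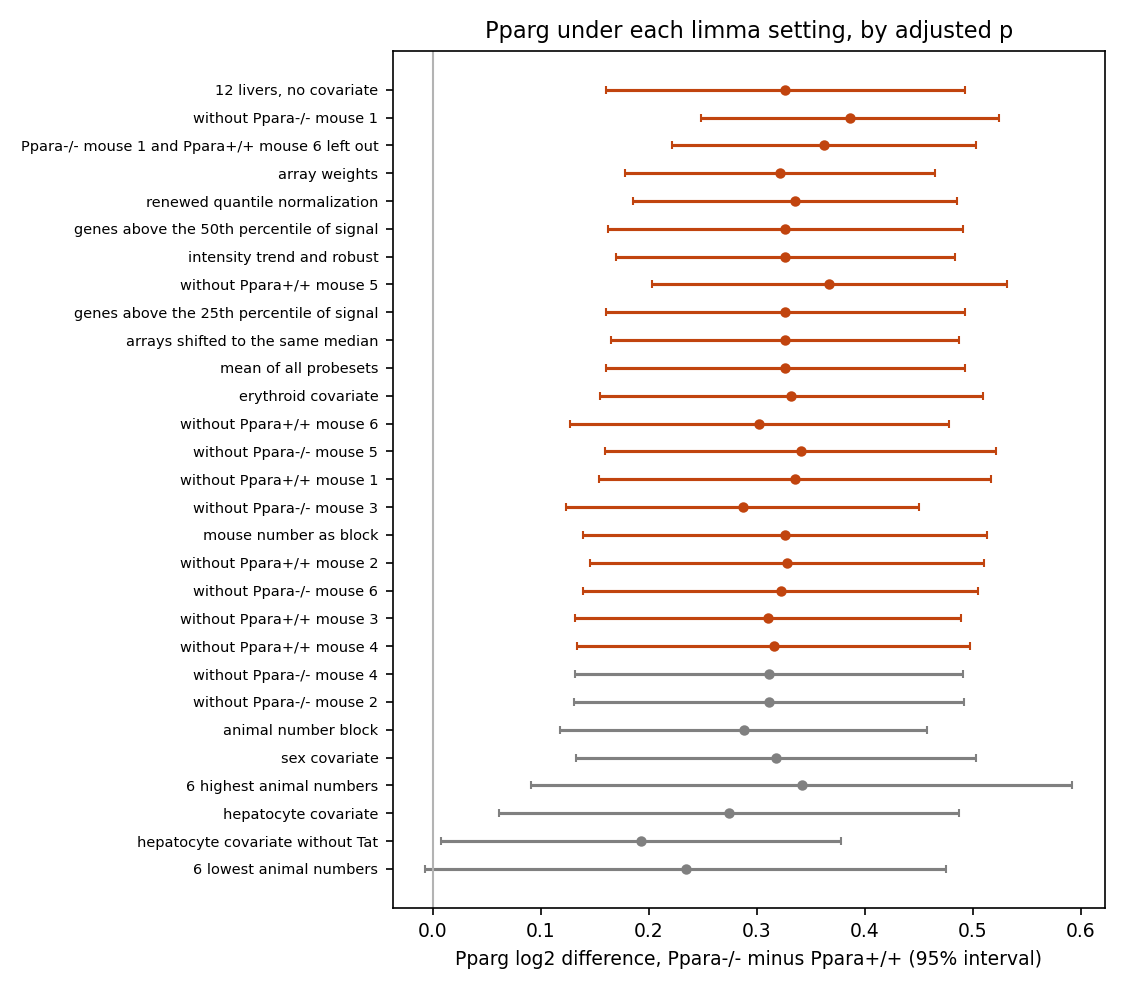
Log2 difference of Pparg, Ppara-/- minus Ppara+/+, with its 95% interval under each limma setting, sorted by adjusted p below the value over 12 livers. Red marks an adjusted p under 0.05 and grey the settings where the call was lost. The difference stays between 0.19 and 0.39 throughout, and the interval crosses 0 only within the 6 lowest animal numbers.

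Pparg is also expressed in fat cells and macrophages, whose markers were therefore read beside it. The counts of calls in this paragraph stand against 7.24% of all genes called, 3.82% lower and 3.42% higher. All 5 measured adipocyte markers were under the lowest array median (6.71), and 0 of them passed the test with limma. The adipocyte hormone gene Adipoq was at 3.91 ± 0.07 against 3.96 ± 0.10 (SD, n = 6 each). Their mean log2 signal was 5.33 to 5.50 in Ppara-/- and 5.31 to 5.54 in Ppara+/+ livers. Of 9 macrophage markers 2 were higher, Csf1r, the receptor of the macrophage growth factor, by 0.23 (adjusted p = 0.0096, 6 of 6 Ppara-/- livers above all Ppara+/+ livers) and Cd5l, a protein secreted by macrophages, by 0.40 (adjusted p = 0.041). The other 7 did not pass the test and went both ways. Cd68, Marco and C1qa were at 0.20, 0.14 and 0.10, and Vsig4, Clec4f, Timd4 and Adgre1 at -0.25, -0.11, -0.04 and -0.03. Without Ppara-/- mouse 1, Cd68 (0.25, adjusted p = 0.043) and Vsig4 (-0.32, adjusted p = 0.024) passed with limma. The summed linear signal of the 9 was 5170 to 5860 in Ppara-/- and 4910 to 5270 in Ppara+/+ livers. The part of macrophages in the Pparg difference was not tested. Of 8 hepatocyte markers, Tat differed by -1.61 (adjusted p = 0.031), and of 4 hepatoblast markers Dlk1, a surface protein of immature liver cells, was higher by 0.42 (adjusted p = 0.033). Of 8 stellate cell markers, Des was lower (-0.39, adjusted p = 0.018) and Reln higher (0.16, adjusted p = 0.034). Leaving out any one of Ppara-/- mice 2, 4, 5 or 6 or of Ppara+/+ mice 1 to 4 ended the calls of Tat, Dlk1, Cd5l and Reln, and so did leaving out Ppara-/- mouse 3 for Cd5l and Reln (adjusted p 0.055 to 0.099). With the hepatocyte marker mean as a covariate the calls of Csf1r and Des were lost as well (adjusted p = 0.14 and 0.31), and without Tat in that mean the call of Csf1r was lost (0.22) and that of Des was not. Erythroid, granulocyte, megakaryocyte, endothelial, cholangiocyte and muscle lists had 0 members past the test with limma. These lists are short, and 0 calls is near the share of all genes.

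Ppard did not differ beyond the spread between livers. Its log2 signal was 8.28, 8.58, 8.51, 8.44, 8.26 and 8.27 in Ppara-/- mice 1 to 6, and 8.44, 8.23, 8.35, 8.32, 8.22 and 8.39 in Ppara+/+ mice 1 to 6. The groups overlapped, although Ppara-/- mice 2 and 3 were above every Ppara+/+ liver. The log2 difference was 0.06 (SE 0.07, adjusted p = 0.66 with limma), and its 95% interval, -0.08 to 0.20, allows a level between 94.9 and 115% of the Ppara+/+ mean.

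Of the RXR genes none passed the test with limma. Rxra, the main RXR of liver, was measured at 10.23, 10.19, 10.25, 10.34, 10.29 and 10.12 in Ppara-/- mice 1 to 6, and at 10.21, 10.32, 10.31, 10.27, 10.23 and 10.18 in Ppara+/+ mice 1 to 6, on the log2 scale. The groups overlapped, with Ppara-/- mouse 4 above and Ppara-/- mouse 6 below every Ppara+/+ liver. The log2 difference was -0.02 (SE 0.05, 95% interval -0.12 to 0.08, adjusted p = 0.89), which places the Ppara-/- level between 92.3 and 106% of the Ppara+/+ level. Rxrb, an RXR of most tissues, was at 8.32, 8.34, 8.46, 8.33, 8.28 and 8.39 in Ppara-/- mice 1 to 6 and at 8.20, 8.42, 8.33, 8.20, 8.31 and 8.31 in Ppara+/+ mice 1 to 6. Its log2 difference was 0.06 (SE 0.05, 95% interval -0.05 to 0.16, adjusted p = 0.57), or 96.8 to 112% of the Ppara+/+ level. Rxrg, the RXR of muscle and brain, was dim on these arrays, under the lowest array median of 6.71 in every liver. It measured 5.21, 5.22, 5.17, 5.20, 5.18 and 4.98 in Ppara-/- mice 1 to 6, and 5.27, 5.06, 5.42, 5.22, 5.08 and 5.20 in Ppara+/+ mice 1 to 6. Its highest value was in Ppara+/+ mouse 3, the liver with the high muscle marker sum, and the part of muscle in it was not tested. The log2 difference was -0.05 (SE 0.06, 95% interval -0.18 to 0.09, adjusted p = 0.75), and -0.01 without that liver (adjusted p = 0.98).

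Whether Ppara changed unequally to the other receptors was tested inside each liver, where array scale cancels. For each liver the log2 signal of the other receptor was subtracted from that of Ppara, and the difference between genotypes was tested by an exact two-sided permutation over the 924 splits of the 12 livers. It was -1.07 against Ppard, -1.34 against Pparg, -0.99 against Rxra, -1.07 against Rxrb and -0.96 against Rxrg. In each case all 6 Ppara-/- livers lay under every Ppara+/+ liver, and the exact p was 0.0022, the smallest that these splits can give, also after adjustment over the 5 pairs. These 5 calls held when each liver was left out in turn. They share the same Ppara values and are not separate results. Ppara alone differed by -1.01 without overlap and no other receptor gene by more than 0.33, so little other outcome was possible.

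Among livers of one genotype the receptor genes were compared with each other, 15 pairs in each of the 2 genotypes, 30 relations in all. None passed after adjustment, the smallest adjusted exact p being 0.083 for Pearson's r and 0.50 for Spearman's rho. That smallest was Ppara with Rxra, the receptor and its usual partner. In Ppara-/- livers r was 0.93 (exact permutation p = 0.0028, n = 6) and rho 0.94 (exact permutation p = 0.017), and r was 0.87 without the 2 livers farthest from the Ppara median. In Ppara+/+ livers r was 0.79 (exact permutation p = 0.078, n = 6) and rho 0.77 (exact permutation p = 0.10), with r at 0.57 without the 2 livers. Ppara-/- mouse 6 was the lowest of its genotype for Ppara (9.66), Rxra (10.12) and Rxrg (4.98), and Ppara+/+ mouse 6 the lowest of its own for Ppara and Rxra. With 6 livers per genotype the smallest exact p possible is 0.0014.

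**Figure D3:**
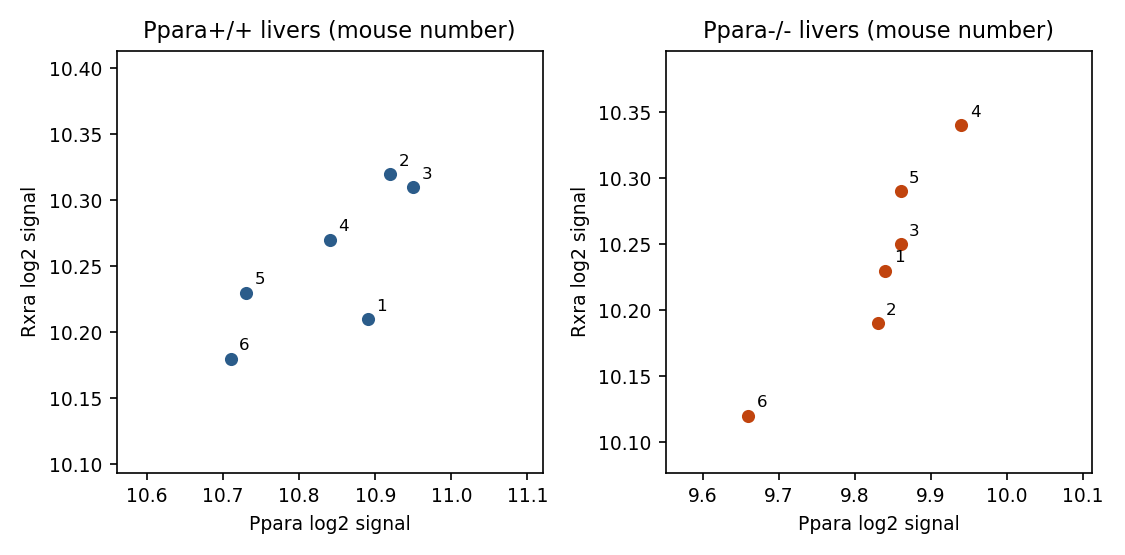
Log2 signal of Rxra against that of Ppara in Ppara+/+ livers (left) and Ppara-/- livers (right), with 1 point per liver labelled by mouse number and the same width of axis in both. The points rise together in each panel, with r of 0.79 and 0.93, and neither passed adjustment over 30 relations.

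The genes that act around the receptors were taken from lists drawn up with earlier results of these data known, and are given as counts beside the median of all genes, 0.01 on the log2 scale. Of all genes 7.24% were called, 3.82% lower and 3.42% higher, and lists with 0 or 1 call are near that share. The other nuclear receptors that pair with RXR had 12 measured members, of which 3 fell, 0 rose and 9 did not pass the test (median -0.01), while Nr1h2 was not analysed here. Nr1h4, the bile acid receptor FXR, was at 9.50, 9.31, 9.44, 9.23, 9.36 and 9.47 in Ppara-/- mice 1 to 6 and at 9.74, 9.71, 9.79, 9.82, 9.60 and 9.51 in Ppara+/+ mice 1 to 6. The groups did not overlap, with a log2 difference of -0.31 (SE 0.06, adjusted p = 0.0082 with limma), lost among the 26 limma settings with the hepatocyte covariate with and without Tat (adjusted p = 0.20 and 0.11). Nr1h3, the oxysterol receptor LXRα, differed by -0.34 (adjusted p = 0.033) and Rarb, a retinoic acid receptor, by -0.29 (adjusted p = 0.038). The call of Nr1h3 was lost without any one of Ppara-/- mice 2, 4, 5 or 6 or Ppara+/+ mice 1 to 4 (adjusted p 0.061 to 0.08), and that of Rarb without any one of Ppara-/- mice 2 to 6 or Ppara+/+ mice 1 to 4 (adjusted p 0.054 to 0.093). With the hepatocyte covariate their adjusted p was 0.58 and 0.54. Nr1i2, the xenobiotic receptor PXR, was at -0.23 without passing (adjusted p = 0.051), and passed in 10 of the 26 settings, among them those without Ppara-/- mouse 1 (0.049), Ppara-/- mouse 3 (0.019) or Ppara+/+ mouse 6 (0.041). Nr1i3, the related receptor CAR, was at -0.68 without passing (adjusted p = 0.061), and passed without Ppara-/- mouse 1 (0.0096) or Ppara+/+ mouse 6 (0.0088).

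Of 14 measured coactivators of PPARs none passed the test with limma (median 0.00). The largest difference was that of Ppargc1a, which encodes PGC-1α, a coactivator of oxidative metabolism. Its log2 signal was 9.30, 10.11, 10.11, 10.18, 9.99 and 9.99 in Ppara-/- mice 1 to 6, and 9.37, 9.31, 9.32, 9.35, 9.83 and 9.89 in Ppara+/+ mice 1 to 6. Ppara-/- mice 2 to 6 were above every Ppara+/+ liver and Ppara-/- mouse 1 below them all. The values also split by animal number in both genotypes. Ppara-/- mouse 1 and Ppara+/+ mice 1 to 4, whose animal numbers are lower than all others, were at 9.30 to 9.37. The other livers were at 9.83 to 10.18. The log2 difference of 0.43 (adjusted p = 0.093) passed without Ppara-/- mouse 1 (adjusted p = 0.0043) or Ppara+/+ mouse 6 (adjusted p = 0.041). Crebbp, a histone acetyltransferase, was at 0.10 (adjusted p = 0.14) and passed in none of the 26 settings. Lpin1, a phosphatidate phosphatase that also acts as a coactivator, was at 0.38 (adjusted p = 0.15) and passed without Ppara-/- mouse 1 (adjusted p = 0.0076). Its values split by animal number at the same point as those of Ppargc1a. So did those of Tat, Dlk1, Cd5l, Nr1h3 and Nr1i3 above and of Pck1 below. The genotypes were not compared with a block cut at this point, so its part in these differences was not tested. Of 6 measured corepressors none passed with limma (median -0.05). The lowest was Tbl1xr1, a subunit of a corepressor complex, at -0.21 (adjusted p = 0.11), which passed without Ppara-/- mouse 1 (0.024) or Ppara+/+ mouse 6 (0.016).

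The mRNA of ligand carriers and retinoid enzymes was read next, while ligands themselves were not measured on these arrays. Fabp1 is also counted among the classical PPARα targets below. Of 10 measured carriers that bind fatty acids or retinoids in the cell, 2 fell, 0 rose and 8 did not pass the test (median -0.07). Fabp1, the liver fatty acid carrier, was at 11.12 ± 0.20 in Ppara-/- against 12.39 ± 0.10 in Ppara+/+ livers (SD, n = 6 each), a log2 difference of -1.27 with no overlap (adjusted p = 2.4e-07). Fabp2, the intestinal form, was at -1.07 (adjusted p = 0.0096), lost with the hepatocyte covariate with and without Tat (adjusted p = 0.21 and 0.14). Fabp2 was dim, with a mean signal of 6.23 over the 12 livers. It was among 5 of the 10 carriers under the lowest array median (6.71). Fabp4 and Fabp5, carriers known from fat cells and skin, were at -0.10 (adjusted p = 0.72) and 0.04 (adjusted p = 0.80). Of 10 enzymes that make or remove retinoid ligands of RXR and RAR, 2 fell and 8 did not pass (median 0.00). Retsat, which saturates retinol, was at 8.28, 8.43, 8.54, 8.31, 8.41 and 8.59 in Ppara-/- mice 1 to 6 against 10.30, 10.38, 10.19, 10.26, 10.27 and 10.09 in Ppara+/+ mice 1 to 6. The log2 difference was -1.82 (SE 0.06, adjusted p = 7.3e-10), with no overlap. Aldh1a2, which makes retinoic acid, was at -0.32 (adjusted p = 0.034), and its call was lost without any one of Ppara-/- mice 2, 5 or 6 or Ppara+/+ mice 1 to 4 (adjusted p 0.054 to 0.085), and with the hepatocyte covariate (adjusted p = 0.33).

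Among 12 measured transcription factors known to act on PPAR genes, 3 rose, 0 fell and 9 did not pass the test (median -0.01). Klf15, a glucocorticoid-responsive factor, was at 9.31, 9.47, 9.48, 9.56, 9.60 and 9.46 in Ppara-/- mice 1 to 6 and at 9.19, 9.14, 9.12, 9.22, 9.24 and 9.26 in Ppara+/+ mice 1 to 6. All 6 Ppara-/- livers were above every Ppara+/+ liver, a log2 difference of 0.28 (adjusted p = 0.0038), lost among the 26 settings with the hepatocyte covariate with and without Tat (adjusted p = 0.11 and 0.072). Nr3c1, the glucocorticoid receptor, was 9.57, 9.88, 9.95, 9.93, 9.87 and 9.87 in Ppara-/- mice 1 to 6 and 9.48, 9.50, 9.53, 9.59, 9.58 and 9.61 in Ppara+/+ mice 1 to 6. As for Pparg and Ppargc1a, Ppara-/- mice 2 to 6 were above every Ppara+/+ liver and mouse 1 was not, and the log2 difference was 0.30 (adjusted p = 0.0083), lost among the 26 settings with the same covariates (adjusted p = 0.21 and 0.14). Within the 6 lowest animal numbers alone the adjusted p was 0.32 for Klf15 and 0.48 for Nr3c1, within the 6 highest 0.13 and 0.07, and by the exact Mann-Whitney test 0.06 and 0.13. Stat5b, which carries growth hormone signals, was at 0.25 (adjusted p = 0.023), with the call lost without Ppara-/- mouse 2 (0.059), 5 (0.057) or 6 (0.059) and with the hepatocyte covariate (0.22). Hnf4a and Cebpa, factors of hepatocyte identity, were at -0.06 (adjusted p = 0.38) and -0.10 (adjusted p = 0.25).

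Target genes were counted by the receptor they are best known for. Of 15 measured classical PPARα targets 12 fell, 0 rose and 3 did not pass (median -1.27). Cyp4a14, a fatty acid hydroxylase, differed by -3.86 (adjusted p = 2.2e-09), Cyp4a10 by -3.76 (adjusted p = 8.2e-10), Vnn1, a pantetheinase, by -2.90 (adjusted p = 3.6e-08) and Slc25a20, the mitochondrial carnitine carrier, by -1.65 (adjusted p = 2.2e-09). Acadm, Acot1 and Pex11a, at -0.13, 0.19 and -0.08, did not pass. Of 7 measured targets shared between PPARs 2 fell, Plin2, a lipid droplet coat protein, with a log2 difference of -0.61 (adjusted p = 5.1e-05) and Angptl4, which restrains lipoprotein lipase, with one of -0.55 (adjusted p = 0.014), and 5 did not pass (median -0.21). Of 12 measured PPARγ targets of fat cells and fatty liver 0 rose, 1 fell and 11 did not pass (median -0.07). That is 8.33% called, near the 7.24% of all genes. The one that fell was Aqp7, a glycerol channel, with a log2 difference of -0.64 (adjusted p = 0.0013, all 6 Ppara-/- livers under every Ppara+/+ liver), and it was called in all 26 settings. Lpl, lipoprotein lipase, was at -0.13 with all 6 Ppara-/- livers under every Ppara+/+ liver, without passing (adjusted p = 0.056), and passed without Ppara+/+ mouse 6 (0.03). Pck1, which makes glucose precursors, was at -1.38 (adjusted p = 0.061) and passed without Ppara-/- mouse 1 or Ppara+/+ mouse 6 (adjusted p = 0.011 each). Fabp4, Cidec and Adipoq were at -0.10, -0.13 and -0.05, all short of the test. So were Plin4 (-0.27), Cidea (-0.03), Retn (0.14), Lep (0.08), Mogat1 (0.08) and Plin1 (0.06). Of the 12 genes, 7 had a mean signal under the lowest array median (6.71), where a change is hard to see. Adipoq, Plin1, Cidec, Lep and Retn are also the adipocyte markers read above.

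**Figure D4:**
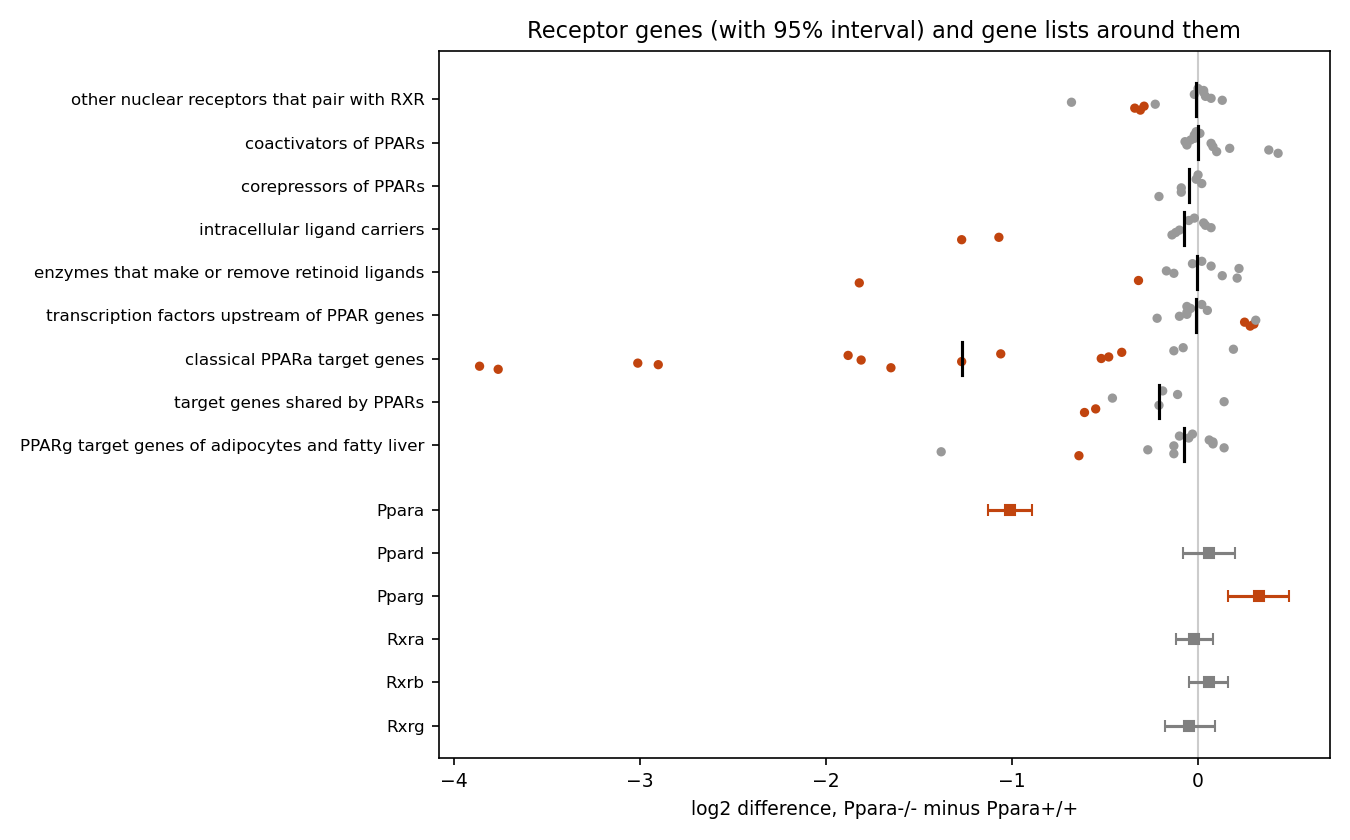
Log2 difference, Ppara-/- minus Ppara+/+, of the 6 receptor genes (squares with 95% intervals) and of each measured member of 9 gene lists (1 point per gene, black bar at the list's median). Red passed an adjusted p of 0.05 with limma and grey did not. Ppara stands at -1.01 and Pparg at 0.33, and the classical PPARα targets reach down to -3.86.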

How the data were processed

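Gene expression was measured in 12 fetal mouse livers, 6 per genotype, grouped by the labels' genotype. TRIzol and silica columns gave the total RNA that was hybridized to Affymetrix MoGene arrays. The values deposited by the authors are log2 signals from RMA, a method that removes background, puts arrays on a common scale and reduces the probes of a probeset to 1 value. Neither an RMA version nor a genome build is given in the sources used here. Such values carry no depth or detection call, and 6 arrays per genotype set their precision. The table held 35556 probesets (1.95 to 13.91 on the log2 scale, array medians 6.71 to 6.75, correlations between arrays 0.9882 to 0.9955). A single gene symbol belonged to 21789 probesets, more than 1 to 1621 and none to 12146, and 21698 of the first kind matched the gene table of GRCm38.p6. The probeset with the highest mean stood for each of 19938 genes. That table served for names and gene order.

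Genotypes were compared with limma 3.58.1 in R 4.3.3 (lmFit, eBayes, two-sided), no covariates, with Benjamini-Hochberg adjustment over all genes and a threshold of 0.05. Within-liver differences and correlations used exact permutation tests (scipy 1.17.1, Python 3.11.15). Named were the 6 receptor genes, from each list members among the 4 of smallest p (not all are described) and any that a count of 5 or fewer refers to, the genes next to Ppara and the 3 genes most like each member. A few others, such as Fabp4, Hnf4a and Adipoq, were named after their values were seen. The 6 genes and the lists were chosen with earlier results of these data known. Some list members are not reported here. The 26 other limma settings changed normalization, scaling, dim filter, probeset rule, variance model, array weights, block or covariate (sex, erythroid and hepatocyte scores, animal numbers), or left out livers. Leaving out Ppara-/- mouse 1 and Ppara+/+ mouse 6 together, and the hepatocyte score without Tat, were chosen after seeing the data. The within-number comparisons, every probeset and the exact Mann-Whitney test were run besides. The procedure was tested on simulated data.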

Additional observations from a re-analysis of the deposited data

Results flagged for a closer look

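Rxrg in Ppara-/- mouse 6, at 4.98 on the log2 scale, lay apart from the other 5 livers of its genotype, which spanned 5.17 to 5.22. The gap to its neighbour was 0.804 of the group's range, above Dixon's 95% critical value for 6 values. It was the only one of 12 groups tested to pass, and chance flags about 1 in 20 groups. The gene is dim in all 12 livers.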

How the results depend on the processing

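Over all genes, 1443 passed with limma in the reported comparison and 47.3% of these were higher in Ppara-/- livers. The count was 223 within the 6 highest and 193 within the 6 lowest animal numbers (15.5% higher), 936 with the animal number block, 850 with sex and 303 with the hepatocyte score as covariate (30.4% higher), 330 with that score without Tat (22.4% higher), 2743 with array weights, 3081 without Ppara-/- mouse 1 and Ppara+/+ mouse 6, and 851 to 2521 when single livers were left out (2521 without Ppara-/- mouse 1). The exact Mann-Whitney test called 0 (smallest adjusted p 0.06, with 3686 genes at an unadjusted p under 0.05), so Ppara, at -1.01, was not called there (adjusted p = 0.06). Ppara was called in every other setting run.

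Pparg kept its direction throughout and lost its call within the 6 highest (0.341) and 6 lowest (0.234) animal numbers, with the animal number block (0.288), sex (0.318) and hepatocyte score with (0.274) and without Tat (0.193) as covariates and in the exact Mann-Whitney test (0.326). Single livers left out gave 0.287 to 0.386, with the call lost without Ppara-/- mouse 2 or 4. Rxra turned to 0.046 within the 6 highest animal numbers and ranged from -0.037 to 0.006 when single livers were left out, above 0 without Ppara-/- mouse 6, never passing the test. With the hepatocyte score without Tat, Rxra was at 0.014 and Ppard at -0.011, and neither passed. Ppard, Rxrb and Rxrg passed in no setting, and the dim filters gave no value for Rxrg.

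Mouse numbers were not taken to pair the livers, since the labels tie them to nothing shared and deviations of same-numbered livers correlated by 0.019 to 0.39, under 0.1 for mice 2 and 4. As a hint from the data, 5 of 12 livers correlated best with their own number. With the replicate block 1619 genes were called and Pparg stayed at 0.33 (adjusted p = 0.044). Rarb (0.059) and Reln (0.064) were not called there, and Nr1i3 (0.018), Klf5 (0.042), Plin4 (0.047) and Pck1 (0.0095) were. No depth exists for arrays, and Rxrg, under the array median, is the least secure of the 6 in signal over background.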

Other observations

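The genes whose signal moved most like that of each receptor gene across livers were read from deviations from the genotype means over 12 livers, among the 9969 genes at or above the 50th percentile of signal. These are descriptions, with no test, over livers that share litters and array processing. As the 3 highest of 9969 genes, such r can be high through that choice alone. For Ppara they were Nr1d2, a nuclear receptor of the circadian clock (r = 0.89), Cebpb (0.89) and Ecscr (0.88), none of which passed the test between genotypes with limma (log2 differences -0.01, -0.04 and -0.08). For Pparg they were Sun2, a nuclear envelope protein (r = 0.93), Peli2, a ubiquitin ligase (0.92), and Zfp24 (0.92). Of these Peli2 was higher in Ppara-/- livers, by 0.35 on the log2 scale (adjusted p = 0.011).

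For Ppard the most alike genes were Robo4, a receptor of endothelial cells (r = 0.87), Surf6 (0.84) and Kcnj8 (0.81). For Rxra they were Ctbs (0.88), Selenon (0.86) and Ppara itself (0.85), for Rxrb Arv1 (0.89), Eola1 (0.89) and Ago3 (0.88), and for Rxrg Ramp1 (0.92), Lhfp (0.80) and Osbpl1a (0.79). Apart from Ppara and Peli2, none of these 18 places held a gene that passed the test between genotypes.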
